A study of Caenorhabditis elegans with 2 samples.

Results

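The cuticle of Caenorhabditis elegans is a layered coat made mostly of small collagens, which the epidermis secretes anew at each moult. Most of these genes are named col- followed by a number, and others are named for the body shape or blisters of their mutants. Here they were taken as every gene named col- and a digit, together with dpy-2, dpy-3, dpy-4, dpy-5, dpy-7, dpy-8, dpy-9, dpy-10, dpy-13, dpy-14, dpy-17, rol-6, rol-8, sqt-1, sqt-2, sqt-3, bli-1, bli-2 and lon-3. This gave 175 genes out of 19973 protein-coding genes, of which 156 have a col- name and 19 a body-shape or blister name. They lie on all chromosomes, with 23 on I, 32 on II, 13 on III, 44 on IV, 33 on V and 30 on X. A further 3 col- names, col-66, col-136 and col-182, belong to pseudogenes and were left out of the 175.

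The measurements were ChIP-seq of the nuclear hormone receptor DAF-12 fused to eGFP, in which DNA bound by the tagged protein is enriched and sequenced. There was 1 group of 2 biological replicates. Both were whole L3 larvae of pooled sex from strain OP222, which carries the unc-119(ed3) III mutation and the wgIs222 insertion for tagged DAF-12. Larvae were taken whole, so a region bound in the epidermis could not be told apart from one bound in another tissue. The promoter that drives the tagged protein and its level in the epidermis are not given in the sources used here. Untreated or untagged control samples were not analysed here, and the lists hold no expression values, so no cell type could be checked against its markers.

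DAF-12 responds to steroid ligands, the dafachronic acids. It takes part in the choice between reproductive growth and the dauer larva, a resting stage with a cuticle of its own. It also acts in the timing of larval stages, among them the passage through the third. Cuticle collagens are made in waves at each moult, and single genes are used at particular stages. col-19 is known for its use in the adult and col-2 for its use in the dauer.

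The authors deposited a list of 30000 regions for each replicate and another for both replicates pooled, holding peaks together with background, and a list of 150 peaks that repeat between replicates by the irreproducible discovery rate (IDR). Each region has a summit and a signal value whose scale is not stated. Signal was therefore used only to rank regions within a list, with rank 1 the highest. Signal ran between 9.097 and 177.5 in the pooled list, between 4.787 and 78.88 in replicate 1 and between 5.797 and 102.1 in replicate 2. No read counts come with the lists, so the depth is unknown. For each gene, the best region was the one with the highest signal whose summit lay within 1 kb of any annotated start of the gene. Positions are in ce11. Such a region is not by itself a sign of binding, because 46.87% of the genome lay within 1 kb of a summit in the pooled list, 46.5% in replicate 1 and 47.42% in replicate 2.

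Few cuticle collagen genes had a high-ranking eGFP-DAF-12 region at their starts. None of the 175 had an IDR peak within 1 kb, and the exact 95% interval reached up to 2.086%. Among the other 19798 protein-coding genes, 105 (0.53%) had one. The 150 highest regions of the pooled list gave the same counts, 0 collagens and 105 other genes. The IDR count is therefore not a measure separate from pooled rank. A best region among the 1000 highest of the pooled list was found at 2 collagen genes, col-159 and col-160, which share a single region. That is 1.14% of the collagens (exact 95% interval 0.1387 to 4.067%), against 2.92% of other genes. Among the 3000 highest, 8 collagen genes had a region (4.57%, interval 1.994 to 8.809%), against 7.63% of other genes. Both intervals held the share of other genes, so these differences were within counting error. Intervals on shares cover counting error over genes only, since neighbouring genes can share a region and are not replicates of a condition.

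The replicates gave the same picture of few high ranks but mostly not at the same genes. In replicate 1, col-159 and dpy-13 had a region among the 1000 highest, 1.14% of the collagens, against 2.74% of other genes. In replicate 2, col-159 and col-160 had one, 1.14% of the collagens, against 2.75% of other genes. The exact 95% interval for 1.14%, 0.1387 to 4.067%, held both shares of other genes. Among the 3000 highest of each replicate there were 5 collagens (2.86%, interval 0.9341 to 6.541%). Other genes had 7.52% in replicate 1 and 7.61% in replicate 2, both above that interval, unlike at the 1000 highest. Only col-159 was among the 1000 highest of both replicates, which is 0.571% of the collagens against 0.682% of other genes. Its summits in the replicates were 2335 bp apart and lay near different annotated starts of the gene. Even this gene thus did not have one region that ranked high in both.

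Any region at all within 1 kb was found at a smaller share of collagen genes than of other genes in each list, but in replicate 1 the difference was within counting error. In the pooled list 76 of the 175 had one (43.4%, exact 95% interval 35.97 to 51.12%), against 52.9% of other genes. In replicate 1 there were 86 (49.1%, interval 41.52 to 56.79%), against 52.4% of other genes. In replicate 2 there were 77 (44.0%, interval 36.52 to 51.69%), against 53.5% of other genes. A region in both replicates was found at 41 collagen genes (23.4%), against 31.8% of other genes. In neither replicate was there a region at 53 collagen genes (30.3%), against 26.0% of other genes. These collagen shares lay near the share of the genome that is within 1 kb of a summit.

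Where both replicates had a region, the best regions were mostly different ones. Of the 41 collagen genes with a region in both, 9 had best summits within 100 bp of each other, against 1208 of 6298 other genes. Taken over all genes of each group, these are 5.14% of collagens and 6.1% of other genes. The 9 collagens were col-3, col-54, col-63, col-85, col-91, col-103, col-110, col-117 and col-183. Over the 41 collagen genes with a best region in both, the log2 ratio of the signal of replicate 1 to that of replicate 2 had a standard deviation of 0.45, against 0.55 over other genes. The median difference in rank between replicates was 6452 for the collagens and 7813 for other genes. Over the 9 collagens with summits within 100 bp it was 11946, against 6597 for other genes with such summits. The rank of a collagen in one replicate was thus often far from its rank in the other.

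**Figure D1:**
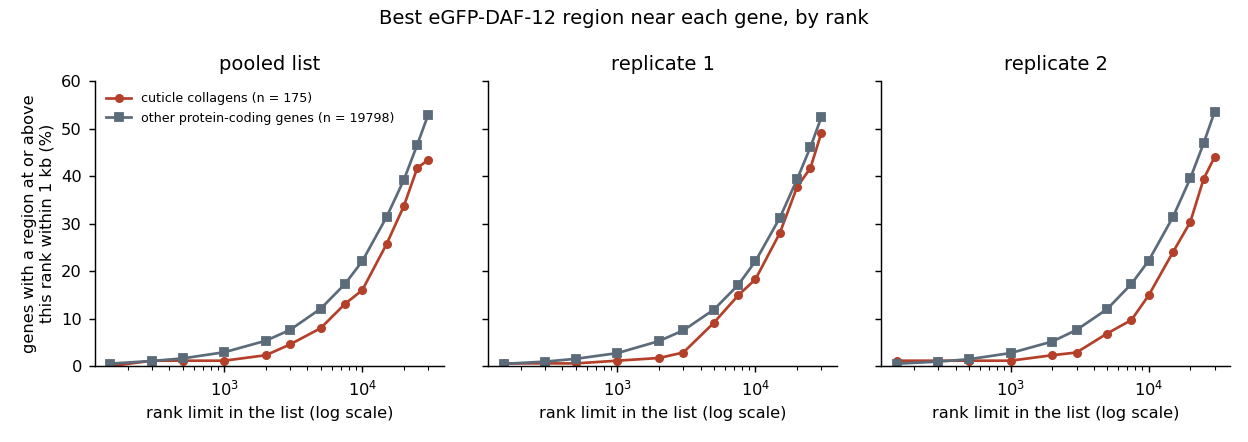
Share of genes with a best region within 1 kb of a start at or above each rank (x axis, log scale), in percent, for the 175 cuticle collagens (red circles) and the 19798 other protein-coding genes (grey squares), in the pooled list and in each replicate. The collagen curve lies below the other curve from rank 1000 on in all 3 panels and ends at 43.4%, 49.1% and 44.0%, against 52.9%, 52.4% and 53.5%.

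Among collagen genes with a region, the ranks were spread over the whole list. The median best rank was 13451.5 over 76 collagen genes in the pooled list, against 12269 over other genes with a region. In replicate 1 the medians were 12932.5 for the collagens and 12181 for other genes, and in replicate 2 they were 14000 for the collagens and 12376 for other genes. When every gene was placed on a percentile scale by its best pooled rank, with 100 the highest, the median collagen gene stood at 23.6, against 50.1 for other genes. The value 23.6 is the place shared by all genes that lack a region, so it says only that the median collagen gene lacks one.

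The highest region at any cuticle collagen lay between genes, just upstream of col-159 and col-160 on chromosome V. Both are on the minus strand, and their annotated spans overlap, chrV:13198231-13202177 for col-159 and chrV:13200982-13202189 for col-160. The summit at chrV:13202485 lay 308 bp upstream of the outermost start of col-159 and 296 bp upstream of that of col-160. Its signal was 31.26 in the pooled list, rank 191, which is below the 33.49 of the lowest IDR peak. The replicates differed there: within 100 bp of that summit, replicate 2 had a region at rank 118 with a signal of 21.01, and replicate 1 one at rank 18295 with a signal of 6.129. The region was thus high in replicate 2 and in the lower part of the list in replicate 1.

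In replicate 1 the best region of col-159 was another one, at rank 150 with a signal of 19.33. Its summit at chrV:13200171 lies in an intron of the long transcript of col-159, 787 bp upstream of a shorter annotated start. The pooled list had a region there at rank 3119 with a signal of 17.48, and replicate 2 had none within 100 bp. The best region of col-160 in replicate 1 ranked 7264, with a signal of 8.374.

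The next genes in the pooled list also ranked high in 1 replicate at most. The summit for col-103 lay 83 bp upstream of its start on chromosome IV, with pooled rank 1108 and signal 21.15. Its region ranked 28813 in replicate 1, with a signal of 4.893, and 3163 in replicate 2, with a signal of 11.69. The region of col-184 on the X chromosome, 422 bp upstream, had pooled rank 1519 and signal 19.96. It ranked 1723 in replicate 2, with a signal of 13, and replicate 1 had no region within 1 kb of the gene. For both genes, replicate 2 held the higher rank.

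The divergent neighbours col-117 and col-3 on chromosome IV share the region between them. Its summit lay 241 bp upstream of col-117 and 347 bp upstream of col-3, with pooled rank 2384 and signal 18.44. It ranked 12845 in replicate 1, with a signal of 7.013, and 24700 in replicate 2, with a signal of 6.421. Repeated 31-mers, which make short reads hard to place, took up 71.16% of the 2 kb window around these starts; their part in the result was not tested.

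Regions inside a gene led at col-129, col-104 and col-85. The summit at col-129 fell in its 5' UTR, 32 bp after the start, with pooled rank 2061, and the best ranks were 11779 in replicate 1 and 10324 in replicate 2. The summit at col-104 fell in coding sequence, 79 bp after the start, with pooled rank 2826. Within 100 bp of that summit the ranks were 23012 in replicate 1 and 11115 in replicate 2, and higher regions of col-104 lay further downstream, at rank 10561 in replicate 1 and rank 5302 in replicate 2. At col-85 the summit lay in an intron, 234 bp after the start, with pooled rank 3326, and the region ranked 2745 in replicate 1 and 17931 in replicate 2. None of these ranked among the 1000 highest of either replicate.

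The rest of the 12 col- genes with the best pooled ranks were col-55, col-183 and col-97, each with a summit upstream of the start. The summit at col-55 lay 152 bp upstream with pooled rank 3154, and its ranks of 3827 in replicate 1 and 4873 in replicate 2 were near each other. The summit at col-183 lay 167 bp upstream with pooled rank 3620, and its best ranks were 18647 in replicate 1 and 4886 in replicate 2. The summit at col-97 lay 103 bp upstream with pooled rank 3939, with rank 1491 in replicate 2 and no region in replicate 1. Of the best pooled regions of the collagens, 16 of 76 (21.1%) had a region of both replicates within 100 bp, against 17.7% for other genes. A further 23 (30.3%) had one of replicate 1 alone, against 27.0% for other genes, 22 (28.9%) one of replicate 2 alone, against 37%, and 15 (19.7%) neither, against 18.3%.

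**Figure D2:**
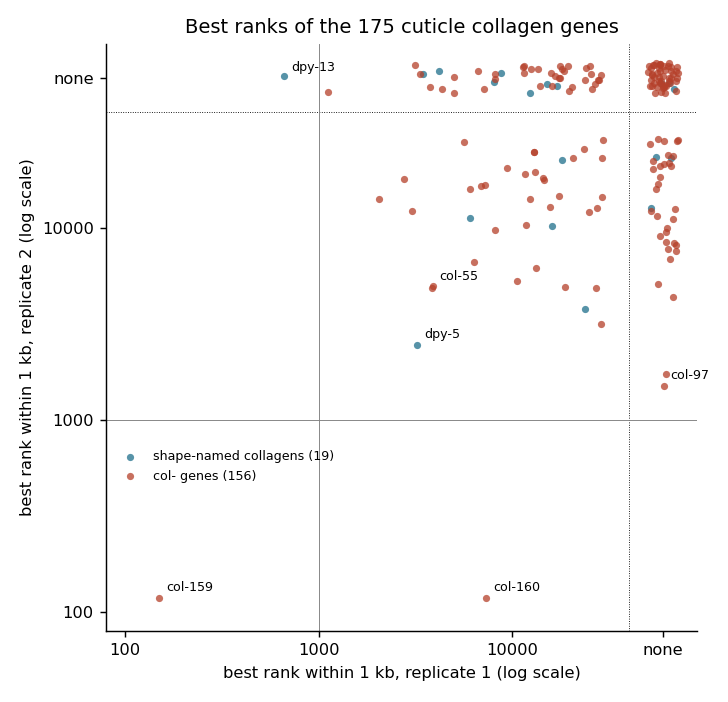
Best rank within 1 kb of a start in replicate 1 (x axis) and replicate 2 (y axis), both on log scales with rank 1 the highest signal, for each of the 175 cuticle collagens; points in the bands marked none have no region within 1 kb in that replicate and are spread for visibility. Grey lines mark rank 1000: only col-159 lies below it in both replicates, and the 53 genes with no region in either replicate crowd the upper right corner.

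The sequence 50 bp to either side of the pooled summits, 101 bases each, is printed below for the named col- genes, since these hold the highest collagen regions. col-55 and col-129 are named only. Each is written 5' to 3' on the strand of the gene named first, from the ce11 assembly, and capitals mark a match on either strand to a receptor hexamer or to the GA repeat, both spelled out further on.
col-159 and col-160 (chrV:13202435-13202535, minus strand): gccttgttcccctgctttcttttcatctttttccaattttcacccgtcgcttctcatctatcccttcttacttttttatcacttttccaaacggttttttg
col-103 (chrIV:763711-763811, minus strand): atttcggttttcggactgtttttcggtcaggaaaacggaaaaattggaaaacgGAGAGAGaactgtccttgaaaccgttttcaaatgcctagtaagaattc
col-184 (chrX:13468983-13469083, plus strand): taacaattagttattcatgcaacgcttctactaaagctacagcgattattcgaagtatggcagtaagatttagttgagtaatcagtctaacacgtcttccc
col-117 and col-3 (chrIV:8824386-8824486, minus strand): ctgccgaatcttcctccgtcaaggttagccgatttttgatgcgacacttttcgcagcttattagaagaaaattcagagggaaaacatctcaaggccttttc
col-104 (chrIV:1355176-1355276, minus strand): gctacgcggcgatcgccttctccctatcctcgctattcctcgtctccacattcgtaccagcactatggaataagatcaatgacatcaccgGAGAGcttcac
col-85 (chrII:12494811-12494911, minus strand): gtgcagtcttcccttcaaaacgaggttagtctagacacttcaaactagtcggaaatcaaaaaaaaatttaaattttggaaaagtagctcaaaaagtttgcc
col-183 (chrX:13467881-13467981, minus strand): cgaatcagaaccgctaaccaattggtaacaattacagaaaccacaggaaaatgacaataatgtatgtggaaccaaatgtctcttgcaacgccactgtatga
col-97 (chrIII:12993760-12993860, minus strand): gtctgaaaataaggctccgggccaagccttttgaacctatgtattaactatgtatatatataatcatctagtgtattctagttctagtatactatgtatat
Of the 8 windows, 2 held a motif, GAGAG in both cases, and none held a receptor hexamer. The window of col-103 holds GAGAG as 2 overlapping copies, printed as one run of capitals. None of the windows contained a 31-mer that is repeated in the genome. The window of col-104 has the highest GC content, 52.48%, and lies in coding sequence, whereas that of col-97 has 31.68%.

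Receptor hexamers were found at few summits, at collagens as at other genes. The hexamers are those given for DAF-12 and related receptors, and GAGAG stands for the GA repeat; matches were sought on both strands and could overlap each other. Over the 74 distinct regions behind the 76 collagen genes, AGTGTG was present within 50 bp of 0 summits, against 3.34% of the summits for other genes. AGTGCA was present at 5 summits (6.76%), against 3.57%, and AGTTCA at 4 (5.41%), against 6.71%. AGGTCA was present at 2 (2.7%), against 2.23%, AGTACA at 1 (1.35%), against 3.94%, and AGTGCG at 0, against 1.99%. GAGAG was present at 10 (13.5%), against 13.9%. The median GC content of these windows was 34.16% for the collagens and 33.66% for other genes.

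In the promoters, taken as the 250 bases before and 50 after the outermost annotated start, most motifs were also about as frequent as elsewhere. AGTGTG was in 11.4% of collagen promoters, against 12.1% of other promoters, and GAGAG in 41.1%, against 40%. AGTGCA was in 6 collagen promoters (3.43%), against 9.71% of other promoters. AGGTCA was in 26 (14.9%), against 8.23%. AGTACA was in 13.1% against 11%, AGTTCA in 18.3% against 20.4%, and AGTGCG in 4.0% against 5.6%. The collagen promoters had a median GC content of 38.21%, against 34.22% for other genes. A match describes the letters in the window and is not a binding site.

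The 19 collagens named for body shape or blisters had no region near the top of the pooled list. In the pooled list 10 of the 19 had a region within 1 kb (52.6%), against 52.9% of other genes. None was among the 3000 highest, where 7.63% of other genes had one, and the exact 95% interval for 0 of 19 reached up to 17.65%. In replicate 1 there were 13 (68.4%), against 52.4% of other genes, and in replicate 2 there were 8 (42.1%), against 53.5%. Both replicates had one at 5 (26.3%), against 31.8%. At none of the 19 did the summits of the replicates lie within 100 bp of each other, against 6.1% of other genes. The exact 95% interval for that 0 also reached up to 17.65%, so it held the share of other genes. Mutants of these genes are short and stout (dpy), long (lon), twisted so that they roll (rol, sqt) or blistered (bli).

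The highest pooled rank of the 19 was that of dpy-13. This gene, the loss of which shortens the body, had pooled rank 6399 with a signal of 15.09, rank 658 in replicate 1 with a signal of 13.83, and no region in replicate 2. Its summit lay 797 bp upstream, in an intron of zipt-2.2, whose own start is nearer at 548 bp. dpy-5, another gene needed for normal body length, had pooled rank 10128, rank 3214 in replicate 1 and rank 2443 in replicate 2, with the summits of the replicates 276 bp apart. dpy-14, an early collagen, had pooled rank 22991, with 6026 in replicate 1 and 11267 in replicate 2. lon-3, whose loss lengthens the body, had pooled rank 26893, rank 8036 in replicate 1 and no region in replicate 2. dpy-4 had a region in replicate 1 alone, at rank 16883.

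The collagens dpy-2, dpy-3, dpy-7, dpy-8, dpy-9 and dpy-10 form the annular furrows, the rings of indentation around the body. Of these 6, 3 had a region in the pooled list, where 52.9% of other genes had one. There were 5 in replicate 1, against 52.4% of other genes, and 2 in replicate 2, against 53.5%. dpy-3 had pooled rank 7868 from a summit in its own coding sequence, rank 3460 in replicate 1 and no region in replicate 2. dpy-9 had pooled rank 8213, with 23711 in replicate 1 and 3775 in replicate 2, and its pooled summit lay in the 3' UTR of the neighbour pqbp-1.1. dpy-7 had pooled rank 17252 and rank 12338 in replicate 1 alone. The furrow genes without a pooled region were dpy-8, which ranked 18084 in replicate 1 and 22475 in replicate 2, dpy-10, at 15159 in replicate 1 alone, and dpy-2, which had none in any list. No list held a region at all 6 furrow collagens.

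The collagens of the roller and squat mutants and those of the adult struts were also scattered. sqt-3, an early collagen whose product is cut by the protease DPY-31, had pooled rank 17878, with 15926 in replicate 1 and 10195 in replicate 2. dpy-17, which is linked to sqt-3 and dpy-31 by genetics, had no region in any list. sqt-2 had pooled rank 24788 and rank 8733 in replicate 1 alone, and sqt-1 had no region in any list. rol-6, the classic roller gene, had a region in replicate 1 alone, at rank 4155, and rol-8 in replicate 2 alone, at rank 23186. The strut collagen bli-1 had pooled rank 15064 and rank 22920 in replicate 2, and bli-2 a region in replicate 2 alone, at rank 12702.

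The stage-specific examples had little. col-19, used in the adult, had no region within 1 kb in any of the 3 lists. col-2, used in the dauer, had pooled rank 21677 with a signal of 10.5, rank 7095 in replicate 1 and no region in replicate 2, and the start nearest to its pooled summit was that of ndc-80. L3 larvae in these samples were not labelled as dauer or adult, so neither gene was measured at the stage for which it is known.

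**Figure D3:**
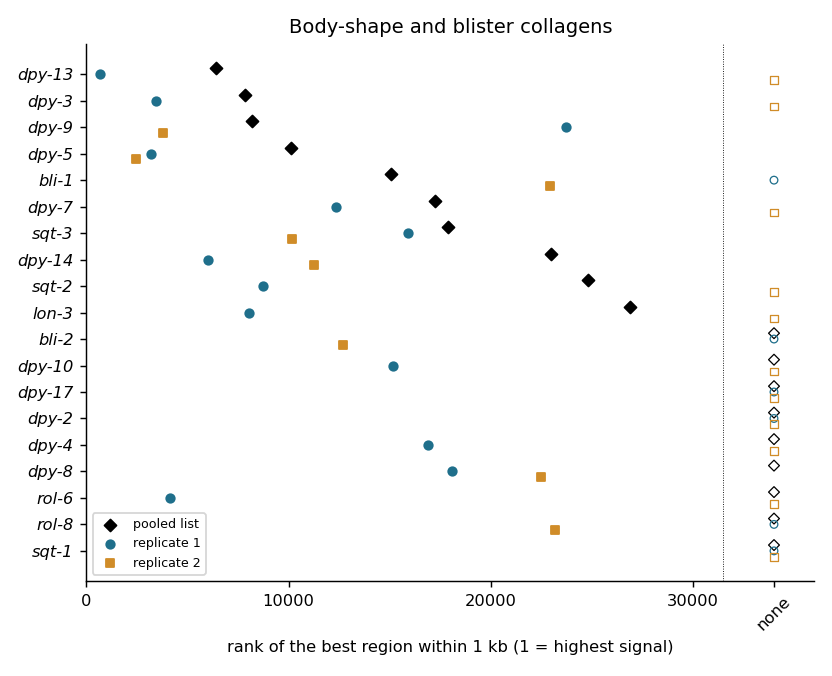
Rank of the best region within 1 kb of a start (x axis, 1 the highest signal) for each of the 19 collagens named for body shape or blisters, in the pooled list (black diamonds), replicate 1 (blue circles) and replicate 2 (orange squares); open marks at the right stand for no region. The marks of one gene are mostly far apart, and dpy-13 in replicate 1, at rank 658, is the sole mark among the 1000 highest.

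Over all genes, the shortfall of regions at collagens lay downstream of the start. Counted from the outermost start, 57 collagen genes (32.6%) had a pooled summit in the 1 kb upstream, against 31.2% of other genes. In the 1 kb downstream there were 31 (17.7%), against 26.6% of other genes. In replicate 1, 33.1% of collagens had a summit upstream, against 30.2% of other genes, and 20% had one downstream, against 26.7%. In replicate 2, 33.1% of collagens had one upstream, against 30.9% of other genes, and 13.7% had one downstream, against 27.1%. Upstream, where the promoter lies, the collagens thus had regions about as often as other genes in each list. Where repeated 31-mers took up under 1% of the sequence on that side, the collagens were lower on both sides. Upstream the shares were then 29.9% of 134 collagens against 35.3% of other genes in the pooled list, 31.3% against 33.9% in replicate 1 and 33.6% against 34.7% in replicate 2. Downstream they were 25% of 96 collagens against 29.6% in the pooled list, 25% against 29.9% in replicate 1 and 19.8% against 30.1% in replicate 2.

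In bins of 500 bp, the lowest collagen share was at 500 to 999 bp after the start. There 6 collagen genes had a pooled summit (3.43%, exact 95% interval 1.268 to 7.313%), against 14.2% of other genes. Replicate 1 had 9.71%, against 14.2%, and replicate 2 had 3.43%, against 14.3%. The next bin, 1000 to 1499 bp after the start, was higher at the collagens in all lists, with 24.6% against 14.5% in the pooled list, 23.4% against 14.5% in replicate 1 and 21.1% against 14.2% in replicate 2. Upstream, the bin of -1500 to -1001 bp had 24.0% in the pooled list, against 14.8%, with 21.1% against 14.3% in replicate 1 and 16.6% against 15.1% in replicate 2. The bin just before the start, -500 to -1 bp, had 17.7% for the collagens and 18.3% for other genes in the pooled list.

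**Figure D4:**
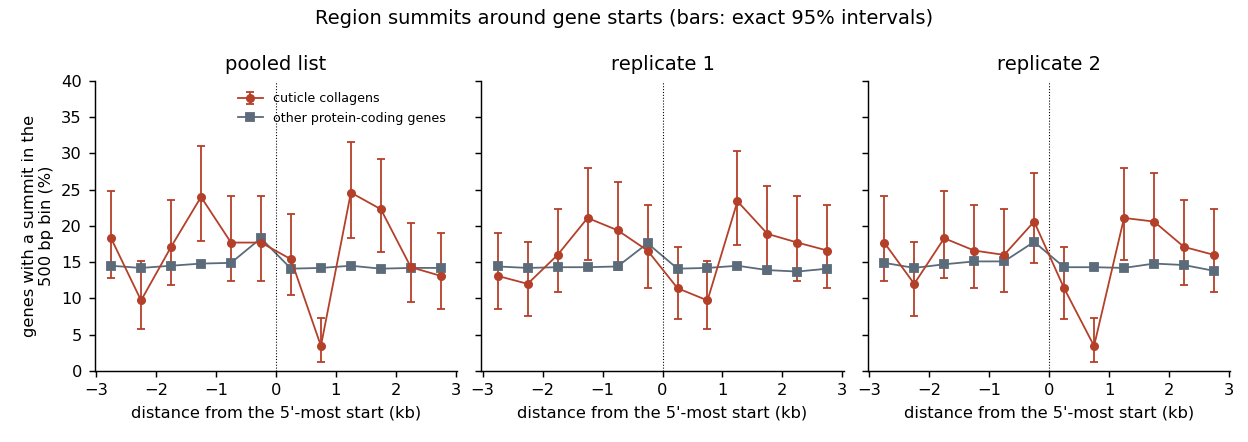
Share of genes, in percent, with a region summit in each 500 bp bin from 3 kb before to 3 kb after the outermost annotated start (dotted line; x axis in kb), for cuticle collagens (red circles, bars are exact 95% intervals) and other protein-coding genes (grey squares). The collagen share dips to 3.43%, 9.71% and 3.43% at 500 to 999 bp after the start and stands at 24.6%, 23.4% and 21.1% in the next bin.

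The bin of the dip is also where collagen genes differ most in base composition. A collagen repeats Gly-X-Y triplets, with proline common at X and Y, and the codons for glycine and proline are rich in G and C. At 500 to 999 bp after the start, the median GC content was 55% for collagens and 35.8% for other genes, and the median share of coding bases was 90.0% for collagens and 40.6% for other genes. Repeated 31-mers made up a mean of 16.03% of that bin at collagens and 6.335% at other genes. In the next bin the median GC content was 38.4% for collagens and 35.8% for other genes. These genes are short, with a median length of 1221 bp against 2040 bp, so the bins beyond mostly lie past the gene's end. The part of base composition, repeats and gene length in the shortfall was not tested.

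Set side by side at like GC content downstream of the start, collagens were not below other genes in any GC class of the pooled list. In each replicate, however, they were below other genes in most GC classes. With a GC content of 50% or more, 8 of 89 collagen genes (8.99%) had a pooled summit in the 1 kb downstream, and 8 of 103 other genes (7.77%). In replicate 1 the shares were 15.7% for collagens and 22.3% for other genes, and in replicate 2 they were 7.87% for collagens and 3.88% for other genes. In the class of 45 to 50%, the pooled shares were 25% of 36 collagens and 16.2% of other genes, with 30.6% against 21.7% in replicate 1 and 13.9% against 15.7% in replicate 2. In the class of 40 to 45%, they were 25% of 20 collagens and 20.3% of other genes, with 15% against 23.2% in replicate 1 and 20% against 20.6% in replicate 2. With a GC content under 40%, 30% of 30 collagen genes and 28.5% of other genes had a pooled summit, with 23.3% against 27.7% in replicate 1 and 26.7% against 29.2% in replicate 2. The direction within a class thus differed between lists. Over the whole 2 kb window, a GC content of 40% or more was found at 70.9% of collagens and 9.95% of other genes. Among those GC-rich genes 42.7% of 124 collagens had a pooled region, against 44.8% of other genes.

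**Figure D5:**
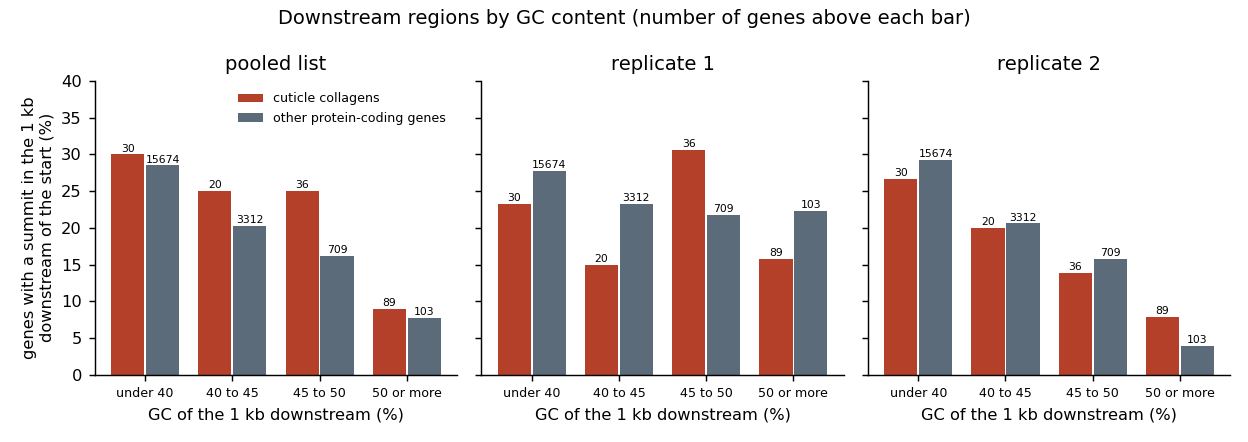
Share of genes, in percent, with a region summit in the 1 kb after the outermost annotated start, by the GC content of that 1 kb, for cuticle collagens (red) and other protein-coding genes (grey), with the number of genes above each bar. In the pooled list and replicate 2 the bars of both groups are lowest at a GC content of 50% or more, at 8.99% and 7.87% for collagens, against 7.77% and 3.88%.

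Collagen genes have fewer annotated starts, which narrows the search window. The part of the number of starts in the shortfall was not tested. A single annotated start was found at 86.9% of collagens and 72.5% of other genes. Among genes with a single start, 41.4% of collagens and 48.5% of other genes had a pooled region, with 48.0% of collagens against 47.9% in replicate 1 and 40.8% against 49.3% in replicate 2. With a single start and a GC content of 40% or more, the pooled shares were 41.4% for collagens and 39.3% for other genes. Repeated 31-mers took up over 10% of the 2 kb window at 23.4% of collagens and 15.7% of other genes. Where they took up under 1%, 48.3% of 89 collagens and 58.8% of other genes had a pooled region. At 1 to 10% the pooled shares were 35.6% of 45 collagens and 51.4% of other genes. Where they took up over 10%, the direction turned, with 41.5% of 41 collagens against 31.6% of other genes in the pooled list. The shares there were 39.0% against 32.6% in replicate 1 and 43.9% against 33.7% in replicate 2.

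The window length turned the contrast. With 2 kb to either side in place of 1 kb, 141 collagen genes (80.6%) had a pooled region, against 74.0% of other genes, and 5 collagens (2.86%) had one among the 1000 highest, against 4.62%. The genes added were col-94, col-176 and col-181, named here after their values were seen. The summit for col-181 lay 1012 bp downstream of its start, just outside the 1 kb window, and ranked 229 in the pooled list, 158 in replicate 2 and 5106 in replicate 1. The summit for col-94 lay 1783 bp upstream in an intron of dhc-4, with a pooled signal of 32.34 at rank 169, rank 108 in replicate 1 and rank 5462 in replicate 2. At the near side of the limit, the summit for sqt-2 lay 958 bp upstream.

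col-176 was the one collagen with nearby high ranks in both replicates at 2 kb. The pooled summit lay between genes, 1432 bp downstream of its start on the X chromosome, with rank 695 and a signal of 23.05. The best rank was 200 in replicate 1, with a signal of 17.77, and 591 in replicate 2, with a signal of 15.58, and these summits were 319 bp apart. col-176 spans chrX:10077597-10078728, so the pooled summit at chrX:10079029 lies past its end.

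The IDR list is short, and its peaks were far from most genes, collagens and others. None lay within 2 kb of a collagen start, against 0.823% of other genes. Within 5 kb there was 1 collagen (0.571%), against 1.61% of other genes, within 10 kb 2 (1.14%), against 2.8%, and within 20 kb 8 (4.57%), against 5.23%. The median distance was 231241 bp for collagens and 289848 bp for other genes. The closest was 3450 bp from col-185, at chrX:13514547, with rank 144 and a signal of 33.8, and the next was 8233 bp from dpy-14.

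By chromosome, collagens had regions least often on II and V. On chromosome II 9 of 32 collagens (28.1%) had a pooled region, against 49.7% of other genes, and on chromosome V 9 of 33 (27.3%), against 50.7%. The same held in replicate 1, with 37.5% against 51% on II and 39.4% against 49.5% on V, and in replicate 2, with 40.6% against 50.3% on II and 33.3% against 53.0% on V. On chromosome IV the shares were 54.5% for 44 collagens and 52.8% for other genes, and on chromosome I 56.5% for 23 collagens and 51.9% for other genes. On the X chromosome they were 50% for 30 collagens and 60.7% for other genes, and on III 46.2% for 13 collagens and 54.2% for other genes.

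The best pooled regions of the collagens lay upstream in 50 of 76 cases (65.8%), against 55.1% for other genes, at a median distance of 347 bp, against 446 bp. The collagen's own start was the nearest one for 69 of the 76 (90.8%), against 87.4%. By place, 36 of these summits were intergenic, 18 in introns, 15 in coding exons, 5 in 3' UTRs and 2 in 5' UTRs, counting a shared region once for each gene.

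Genes that act on collagens were set beside them. Of 21 genes for collagen processing, secretion and moulting, 14 (66.7%) had a pooled region, against 52.9% of other genes. In replicate 1 there were 9 (42.9%), against 52.4%, and in replicate 2 there were 16 (76.2%), against 53.5%, so the list lay above other genes in one replicate and below them in the other. The highest was dpy-11, a thioredoxin-like protein of the epidermis, with pooled rank 227 and a signal of 29.74, rank 826 in replicate 1 with a signal of 13.27, and rank 316 in replicate 2 with a signal of 17.29. It was the only one of the 21 among the 1000 highest of both replicates, at summits 205 bp apart, and replicate 1 had no region within 100 bp of the pooled summit. nas-36, a moulting protease, had pooled rank 1010, with 14646 in replicate 1 and 1505 in replicate 2. dpy-31, the protease that cuts SQT-3, had pooled rank 2408, with 3182 in replicate 1 and 2322 in replicate 2 at summits 193 bp apart, and replicate 1 had none within 100 bp of the pooled summit. dpy-18, which encodes a prolyl 4-hydroxylase subunit for collagens, had no region in any list.

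Of 12 regulators of the epidermis and of collagen expression, 9 (75%) had a pooled region and 2 had one among the 3000 highest. Among other genes, 52.9% had a pooled region and 7.63% one among the 3000 highest. The exact 95% interval for the regulators' 75% ran between 42.81 and 94.51%. Each replicate had a region at 66.7% of the regulators, against 52.4% of other genes in replicate 1 and 53.5% in replicate 2. Several regulators have many annotated starts, 6 each at sma-9, elt-1, elt-3 and nhr-23, which widens the search window. Among other genes with 2 or more starts, 64.4% had a pooled region. The part of the number of starts in the share of the regulators was not tested. sma-9, a cofactor in TGF-beta body-size signalling, had pooled rank 1683. Its best ranks were 2964 in replicate 1 and 772 in replicate 2, at summits 5391 bp apart, and replicate 1 had no region within 100 bp of the pooled summit. elt-1, a GATA factor of epidermal fate, had pooled rank 2317 at a summit 1000 bp upstream of a start. Within 100 bp of that summit, replicate 2 had a region at rank 640 and replicate 1 had none. The best regions within the window of elt-1 were others, at rank 4371 in replicate 1 and rank 13632 in replicate 2. The basement membrane collagens are made by other tissues and are not part of the cuticle. Of the 3 listed, 2 had a pooled region, against 52.9% of other genes, 3 one in replicate 1, against 52.4%, and 1 one in replicate 2, against 53.5%. cle-1 had pooled rank 3794, with 7895 in replicate 1 and 1405 in replicate 2 at summits 3670 bp apart. emb-9 had pooled rank 9381, with 843 in replicate 1 and no region in replicate 2. let-2 had a region in replicate 1 alone, at rank 5412.

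The cytosolic ribosomal protein genes show how another large family looked in the same lists. Of 78, 63 (80.8%) had a pooled region, 17 (21.8%) one among the 1000 highest, 10 (12.8%) one among the 1000 highest of both replicates, and 7 (8.97%) an IDR peak within 1 kb. The cuticle collagens, with 43.4%, 1.14%, 0.571% and 0 for the same measures, stood below them on each. No test was made of that difference, since there is 1 group and the families were chosen with results known.

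The 3 pseudogenes left out of the 175 also had regions. At col-136 the pooled rank was 1122, with a signal of 21.11, from a summit 612 bp upstream, and the ranks were 8693 in replicate 1 and 1678 in replicate 2. col-66 had pooled rank 9116 and rank 12823 in replicate 1 alone, and col-182 had pooled rank 16499 and rank 7711 in replicate 2 alone.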

How the data were processed

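The data are ChIP-seq region lists for eGFP-DAF-12 in whole L3 larvae, in 1 group of 2 samples that the labels number as biological replicates 1 and 2. Per the text files deposited beside the lists, the authors made them from read alignments with a control alignment. The peak caller, aligner, versions and IDR threshold are not given in the sources used here. Each region of the deposited lists has 1 signal value from the authors, in column 7, on a scale that is not stated, so ranks depend on their caller and their control. Depth is unknown, and intervals cover counting error over genes only. The lists in ce10 were not used here.

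Starts were the 5' ends of transcripts in the Ensembl release 115 annotation of WBcel235, the assembly named ce11. Gene symbols were those of Ensembl. Of 178 RefSeq symbols that meet the naming rule, 3 pseudogenes were left out. Sequence, GC content and repeated 31-mers, those found more than once in the genome on either strand, were read from the WBcel235 genome. Promoter sequence was planned from RefSeq promoter tables and was read from the genome instead. The steps were run in Python 3.11.15 with pandas 2.3.3, numpy 2.4.6 and scipy 1.17.1. The search for best regions was tested on simulated data and found all planted regions. Shares are given beside those of other protein-coding genes with exact (Clopper-Pearson) 95% intervals and without p-values.

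The members, gene lists, motifs and rules were chosen with earlier results of these data known. Named genes were the 19 with a body-shape or blister name, the 12 col- genes with the best pooled rank, any in the 1000 highest of both replicates, any with an IDR peak within 2 kb, col-19 and col-2. Others are named from lists of processing, secretion and moulting genes, regulators and basement membrane collagens. A processing gene listed under its 2 names, dpy-31 and nas-35, was counted once. Alternatives were other windows, rank limits, starts, lists, chromosomes and the counting of shared regions. Limits to genes with 1 annotated start, a GC content of 40% or more, or under 1% repeated 31-mers were added after seeing the data.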

Additional observations from a re-analysis of the deposited data

How the results depend on the processing

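The lower share of collagens with a region held in 10 of 11 settings and turned at 2 kb, with 80.6% of collagens against 74.0% of other genes. These settings include the list of each replicate alone, and they overlap in genes and regions. Some differences were small, such as 31.4% against 34.3% at 500 bp and 42.7% against 44.8% with a GC content of 40% or more. In replicate 1 alone the difference was within counting error. The share among the 1000 highest was below that of other genes in all 13 settings, though within counting error in the main setting. It was 2.86% at 2 kb, 0.578% with shared regions counted once, 4.57% for the 3000 highest, and 0 both for genes with 1 annotated start and for genes with under 1% repeated 31-mers. The share among the 1000 highest of both replicates was below that of other genes in 8 of 12 settings. It was above at 2 kb (1.71% against 1.18%), with shared regions counted once (0.575% against 0.548%), on autosomes (0.69% against 0.678%) and for the 500 highest (0.571% against 0.444%). It was 0 at 500 bp, with the outermost start only, with summits within 100 bp, with 1 annotated start and with under 1% repeated 31-mers, so at 1 kb it rests on col-159 alone. The share with an IDR peak was 0 at every window, and with the 150 highest regions of a single replicate in place of the IDR list it was 0.571% to 1.14%, against 0.475% to 0.51% of other genes. The median percentile was 32.9 at 500 bp, 25.3 with the outermost start only, 25.8 with 1 annotated start and 27.7 with a GC content of 40% or more, the same as the median of other genes in each of these. In each of these, most genes of both groups lacked a region. Both medians are then the place shared by genes without one and show no agreement of ranks. The median percentile of collagens was 53.2 at 2 kb, 24.2 on autosomes, 45.6 over genes with a region and 20.6 with under 1% repeated 31-mers, against 50, 50.1, 50 and 50 for other genes. The values of 24.2 and 20.6 are also the place of genes without a region. The cause of the other shifts was not tested. Leaving out a replicate gave a region share of 44.0% to 49.1%, against 52.4% to 53.5% of other genes. No paired analysis was possible because there is 1 group. Unknown depth, an unstated signal scale and 2 replicates limit every rank.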
